A study of Mus musculus with 76 samples.

Results

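Interferon-stimulated genes are the genes that cells switch on when an interferon reaches its receptor. A list of 37 such symbols was followed through 76 mouse tumours, each measured on 1 Affymetrix array, and for each gene the probe set with the highest mean was taken. Of the 37 symbols, 35 had a probe set of their own, among 18194 genes with one, and all 35 passed the filter on low values, as did 13868 genes in all. Isg15 shares its probe set with another gene and Ifi44 had none listed, so both were not analysed here.

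The tumours came from C57BL/6 mice and a directed complementation model, in which a doxycycline-inducible HER2(V659E) oncogene drives the tumour, is turned off by taking doxycycline away, and an introduced gene takes its place. In all 13 groups HER2(V659E) had been suppressed in this way, and the groups differ in the introduced gene, which in the HER2 group is HER2 again. Of these, RONd160, ErbB3 and MAP3K11 (6 arrays each) were each set against the other 12 groups, whose means were averaged with equal weight. The other groups were FGFR2aIIIb, FGFR2aIIIc, FGFR3, HER2, MAP3K7, PIP5K1B, RON+MSP, RSK2 and TNK2 with 6 arrays each and FAK1 with 4. The 6 MAP3K11 tumours are labelled with cachexia, the wasting of the host, and the other 70 without, so cachexia and the introduced gene cannot be told apart. RONd160 is a splice form of the receptor tyrosine kinase RON that is known to signal without ligand, RON+MSP is RON given with its ligand MSP, ErbB3 is the partner receptor of HER2, and MAP3K11 (also called MLK3) is a kinase upstream of JNK. A further mark of T1, T2 or T3 on each array is undefined. The labels do not state which arrays share an animal or a tumour line, nor what drives the introduced genes. They number the arrays as biological replicates within T1, T2 and T3, and the p-values rest on the spread between these arrays, some of which may share a source. The labels name the tissue only as tumour. Of 10 epithelial markers, Krt8, Krt18, Epcam and Elf3 were above the filter in all 76 arrays, Cdh1 in 71, Krt5 in 69 and Krt19 in 65, against 31 for Krt14, 13 for Krt7 and 8 for Cldn7. Krt8 lay between 10.42 and 13.35 on the log2 scale and Krt18 between 5.22 and 13.48.

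Values are log2 intensities that the authors had normalized between arrays, with array medians of 5.45 to 5.56, and a difference of 1 is 2-fold. Probe sets against a bacterial gene, which should find no target, had a median of 2.95. Arrays of each group were put into pairs, 38 in all, so that the correlation of their levels along the autosomes was highest. Its median was 0.957 for the arrays of a pair (lowest 0.47), against 0.162 for arrays of 1 group that are not paired. As the pairs were chosen by this correlation, the gap does not show that pairs exist. With the chromosome medians taken out of each gene, the same pairs had a median correlation of 0.771, against 0.271. In all 38 pairs the arrays carried different T marks. The labels do not name such pairs, and whether both arrays come from 1 tumour line was not tested. The main fit took all arrays as independent. With the pairs as a random block, the correlation within pairs was estimated at 0.628. Where taking the pairs as a random block changed a count of members or of a gene list set beside them by more than 1.5 times, that count is given too.

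Interferons alpha and beta signal through one receptor and interferon gamma through another, and both reach the nucleus by way of JAK kinases and STAT proteins. Stat2 and Irf9 are parts of ISGF3, the factor that binds the interferon-stimulated response element (ISRE), while interferon gamma acts through the gamma-activated site (GAS). The genes switched on include sensors of viral RNA and DNA, proteins that block viral replication, and brakes on the pathway, and macrophages and tumour cells both can express them.

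The ISRE was searched as GAAA, any 2 bases and GAAA again, on both strands (TTTC, any 2 bases and TTTC on the strand shown), and the GAS as TTC, any 3 bases and GAA, which reads the same on both strands, in the RefSeq promoters of assembly GRCm38.p6, which run from 250 bases before to 50 after a gene's start. Of the 35 measured members, 26 had a promoter entry. ISRE letters were in 15 of these (57.7%), against 1079 of 27025 genes with an entry (3.99%), and GAS letters in 9 (34.6%), against 2582 genes (9.55%). In 4 members both motifs were found, and in 1 of these they overlap. The 200 bases before the start, as the promoter table places it, are shown for 5 members, with ISRE letters in capitals. Ifit1, Ifit3 and Rsad2 had some of the largest differences in RONd160 tumours, and Gbp2 and Xaf1 had the largest in MAP3K11 tumours, both downward. Ifit1 is at chr19:34640689-34640888 and Ifit3 at chr19:34583329-34583528, both on the plus strand, and Rsad2 is at chr12:26456453-26456652 on the minus strand. Gbp2 is at chr3:142620463-142620662 and Xaf1 at chr11:72301429-72301628, both on the plus strand.
Ifit1: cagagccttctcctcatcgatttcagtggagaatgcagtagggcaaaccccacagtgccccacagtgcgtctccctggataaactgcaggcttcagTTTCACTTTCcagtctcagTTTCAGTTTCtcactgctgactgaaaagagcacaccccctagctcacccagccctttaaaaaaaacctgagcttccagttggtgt
Ifit3: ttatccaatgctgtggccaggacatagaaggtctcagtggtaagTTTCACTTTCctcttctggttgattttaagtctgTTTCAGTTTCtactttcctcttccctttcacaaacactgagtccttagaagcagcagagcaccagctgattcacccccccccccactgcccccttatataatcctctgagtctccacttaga
Rsad2: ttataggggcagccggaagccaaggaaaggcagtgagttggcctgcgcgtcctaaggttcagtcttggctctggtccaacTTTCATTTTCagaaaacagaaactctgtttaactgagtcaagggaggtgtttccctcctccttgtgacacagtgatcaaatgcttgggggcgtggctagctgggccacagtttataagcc
Gbp2: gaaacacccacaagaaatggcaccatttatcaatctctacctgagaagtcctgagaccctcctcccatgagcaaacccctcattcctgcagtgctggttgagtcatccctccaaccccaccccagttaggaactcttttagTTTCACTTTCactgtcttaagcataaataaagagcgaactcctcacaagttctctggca
Xaf1: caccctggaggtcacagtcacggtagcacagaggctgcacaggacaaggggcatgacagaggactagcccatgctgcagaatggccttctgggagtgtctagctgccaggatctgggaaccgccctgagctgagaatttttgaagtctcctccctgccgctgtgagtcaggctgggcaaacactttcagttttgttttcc

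Ifit1 carries the same pair of 10-letter matches as Ifit3. They begin 104 and 85 bases before the start in Ifit1, and 156 and 122 in Ifit3. The match of Gbp2 begins 59 bases before its start and that of Rsad2 120 bases before. Xaf1 has no match of these letters in the window. The members lie on 14 chromosomes, among them the 5 OAS genes on chromosome 5, the 3 IFIT genes on chromosome 19, and 6 members spread over chromosome 11.

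The interferon-stimulated genes differed between the 13 groups, and RONd160 and MAP3K11 tumours stood at opposite ends. By limma's F test all 35 members differed among the groups, where 85.9% of all genes tested did, and 32 of 35 with pairs as a block, against 54% of all genes. The distance between the highest and the lowest group mean had a median of 1.89 over the members and 0.548 over all genes tested. RONd160 had the highest group mean for 23 members, ErbB3 for 7 and FGFR3 for 2. MAP3K11 had the lowest for 24 members, FAK1 for 6, HER2 for 4 and FGFR2aIIIb for 1. The exceptions at the top were Isg20, an exonuclease, with its highest mean in HER2 tumours (9.63 ± 0.31), Oas2 in RSK2 tumours (7.88 ± 0.29) and Irf8 in TNK2 tumours (9.20 ± 0.34, SD, n = 6 each).

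**Figure D1:**
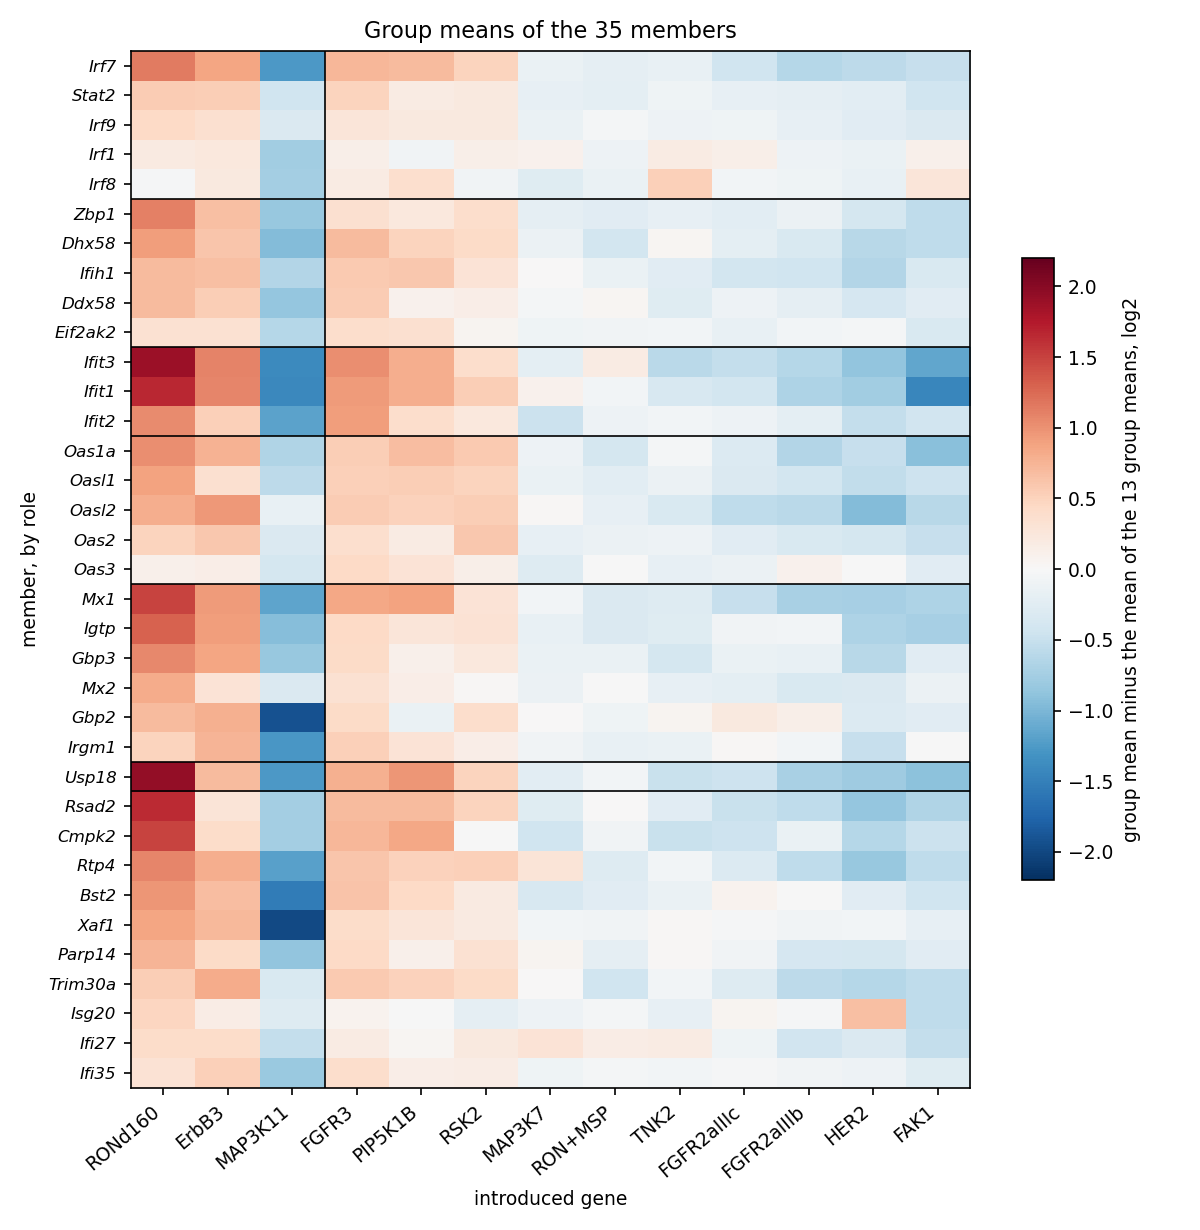
Group means of the 35 members (rows, by role) in the 13 groups (columns), as the difference in log2 intensity from the mean of the 13 group means, with red above and blue below it. The RONd160 column holds the highest mean of 23 members and the MAP3K11 column the lowest of 24.

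To place single arrays, each member was centred on the equally weighted mean of its 13 group means and the 35 members were averaged. This mean was 0.86 ± 0.41 in RONd160, 0.60 ± 0.51 in ErbB3 and 0.52 ± 0.87 in FGFR3 tumours, and it was -0.46 ± 0.74 in FAK1 (n = 4) and -0.87 ± 0.15 in MAP3K11 tumours (SD, n = 6 elsewhere). The other 8 groups lay between, from PIP5K1B at 0.39 ± 0.31 to HER2 at -0.44 ± 0.35. Neighbours in this order differed by less than the SD of at least one of them.

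All 6 RONd160 arrays were above 0, from 0.20 to 1.46, and all 6 MAP3K11 arrays were below it, from -0.96 to -0.55. ErbB3 arrays ran from -0.30 to 1.05, with a single array below 0, T1 replicate 1. The highest array of the series was of the FGFR3 group, T3 replicate 1, at 1.81, and it was the highest array for 23 of the 35 members. The lowest was FAK1 T1 replicate 2 at -1.18, the lowest array for 11 members, and 4 arrays of other groups lay below every MAP3K11 array. MAP3K11 tumours were therefore the narrowest of the 13 groups but not the lowest single tumours. The 2 arrays of a pair differed by a median of 0.241, against 0.530 for the 148 other combinations of arrays of 1 group. As the pairs were matched on expression in these arrays, this gap does not show that pairs exist.

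**Figure D2:**
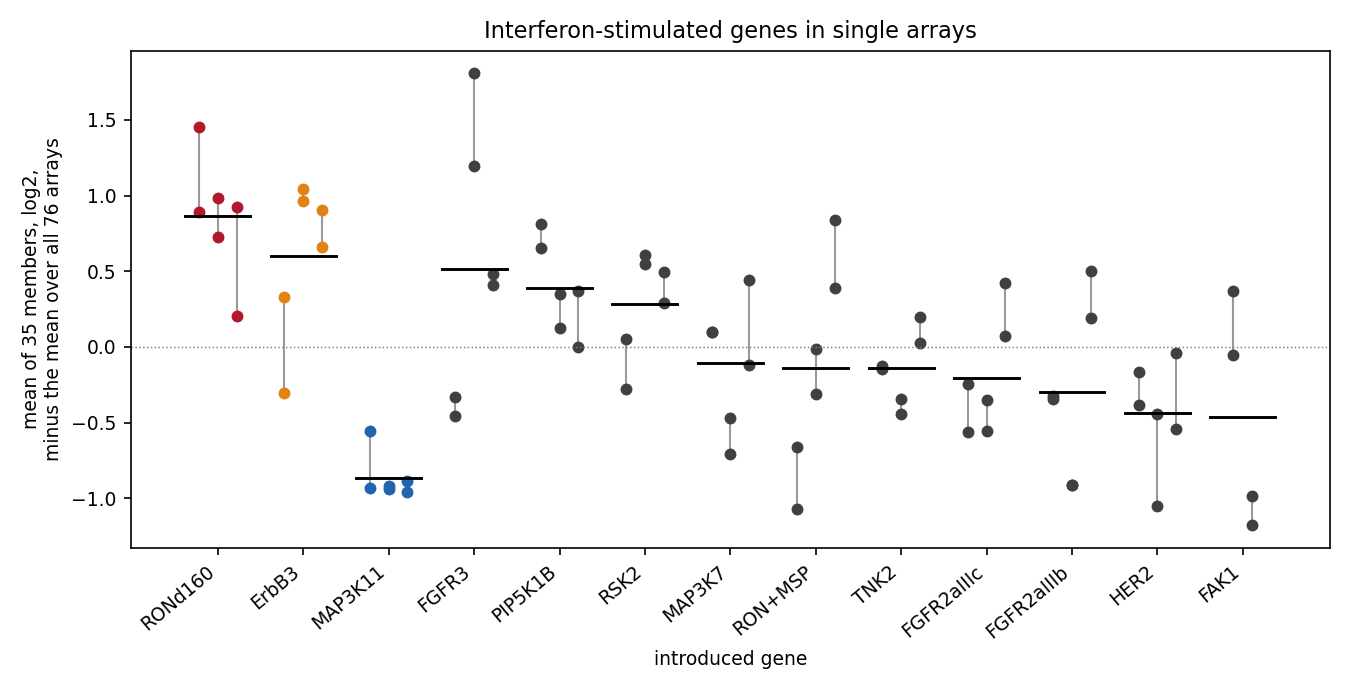
Mean of the 35 members in each array (points, log2, minus the mean of the 13 group means) by introduced gene, with matched arrays joined by a grey line and the group mean as a black bar. The axis label words the centre as the mean over all 76 arrays. RONd160 arrays sit between 0.20 and 1.46 and MAP3K11 arrays between -0.96 and -0.55, while the FGFR3 group holds the highest array at 1.81.

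In RONd160 tumours 29 of 35 members were higher than in the other 12 groups and none was lower, against 11.4% and 11.9% of all genes tested. With at least a 2-fold difference it was 15 members, against 0.519% of genes, and with pairs as a block 22 members, against 4.13%. The median difference was 0.89 over the members and 0.01 over all genes tested. The members that were not called were Irf1, Irf8, Oas3, Eif2ak2, Irgm1 and Trim30a, and the block took away the calls of Oasl2, Ifih1, Gbp2, Oas2, Ifi35, Stat2 and Irf9.

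Usp18, which removes ISG15 from proteins and dampens the interferon receptor, changed most. Its level had a lowest, median and highest array of 8.76, 9.69 and 10.43 in RONd160 tumours, against 5.54, 7.34 and 10.59 in the other 70 tumours. The lowest RONd160 array was above 62 of those 70, and 1 of the 70, FGFR3 T3 replicate 1, was above all 6. The difference was 2.12 ± 0.33 (SE, adjusted p = 2.78e-06, limma).

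The 3 IFIT genes, whose proteins bind viral RNA, were all higher. Ifit3 had arrays of 8.08, 9.94 and 10.64 (lowest, median and highest) in RONd160 tumours, against 5.14, 7.45 and 11.21 elsewhere, a difference of 2.07 ± 0.39 (adjusted p = 7.25e-05). Ifit1 had 7.56, 9.17 and 9.70 in RONd160 tumours, against 3.82, 7.20 and 10.25 elsewhere, a difference of 1.82 ± 0.40 (adjusted p = 0.000471). In both genes every RONd160 array was above the median of the other tumours, and the ranges overlap. Ifit2 was higher by 1.15 ± 0.23, with 1 of 6 arrays below that median.

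Rsad2 and Cmpk2 lie next to each other on chromosome 12. Rsad2 encodes viperin, which makes a chain-terminating nucleotide, and Cmpk2 a mitochondrial nucleotide kinase. Rsad2 had arrays of 7.91, 9.60 and 10.97 in RONd160 tumours, against 6.12, 7.65 and 10.58 elsewhere, and its difference was 1.79 ± 0.31 (adjusted p = 1.26e-05). Its highest RONd160 array was the highest of the series. Cmpk2 had 4.61, 6.92 and 8.81 in RONd160 tumours, against 4.02, 4.91 and 8.51 elsewhere, and differed by 1.63 ± 0.31 (adjusted p = 9.07e-05). The RONd160 array at 4.61 was below the median of the other tumours. The 3 probe sets of Rsad2 gave raw differences of 1.78, 1.58 and 1.78 between the means, and the 2 of Cmpk2 gave 1.61 and 1.74.

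Of the 6 interferon-induced GTPases 5 were higher in RONd160 tumours. Mx1, a dynamin-like antiviral GTPase, differed by 1.62 ± 0.37 (adjusted p = 0.000736) with 5 of 6 arrays above the mean of the other groups, and Igtp, which acts on vacuoles that hold pathogens, by 1.43 ± 0.32 (adjusted p = 0.000715) with 6 of 6. Mx2, Gbp2 and Gbp3 differed by 0.89, 0.77 and 1.15. Of the 5 OAS genes, whose products make the messenger that activates RNase L or resemble those enzymes, 4 were higher, from Oas2 at 0.53 to Oas1a at 1.12, and Oas3 differed by 0.11 ± 0.14. Of the 5 sensors of viral RNA and DNA 4 were higher: Zbp1 by 1.21, Dhx58 (LGP2) by 1.02, and Ifih1 (MDA5) and Ddx58 (RIG-I) by 0.77 each. Eif2ak2, the kinase PKR, differed by 0.36 ± 0.16 (adjusted p = 0.0935).

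The transcription factors moved unevenly. Irf7, which drives the production of more interferon, had arrays of 7.99, 8.88 and 9.41 in RONd160 tumours, against 5.80, 7.44 and 10.11 elsewhere, and was higher by 1.25 ± 0.30 (adjusted p = 0.00168). Stat2 was higher by 0.60 ± 0.22 and Irf9 by 0.48 ± 0.15, calls that were not made with pairs as a block (adjusted p = 0.199 and 0.123). Irf1, an early target of interferon gamma, differed by 0.21 ± 0.11 (adjusted p = 0.139). Irf8, a factor of myeloid and lymphoid cells, differed by -0.02 ± 0.20 (adjusted p = 0.948), with 3 RONd160 arrays on each side of the median of the others.

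**Figure D3:**
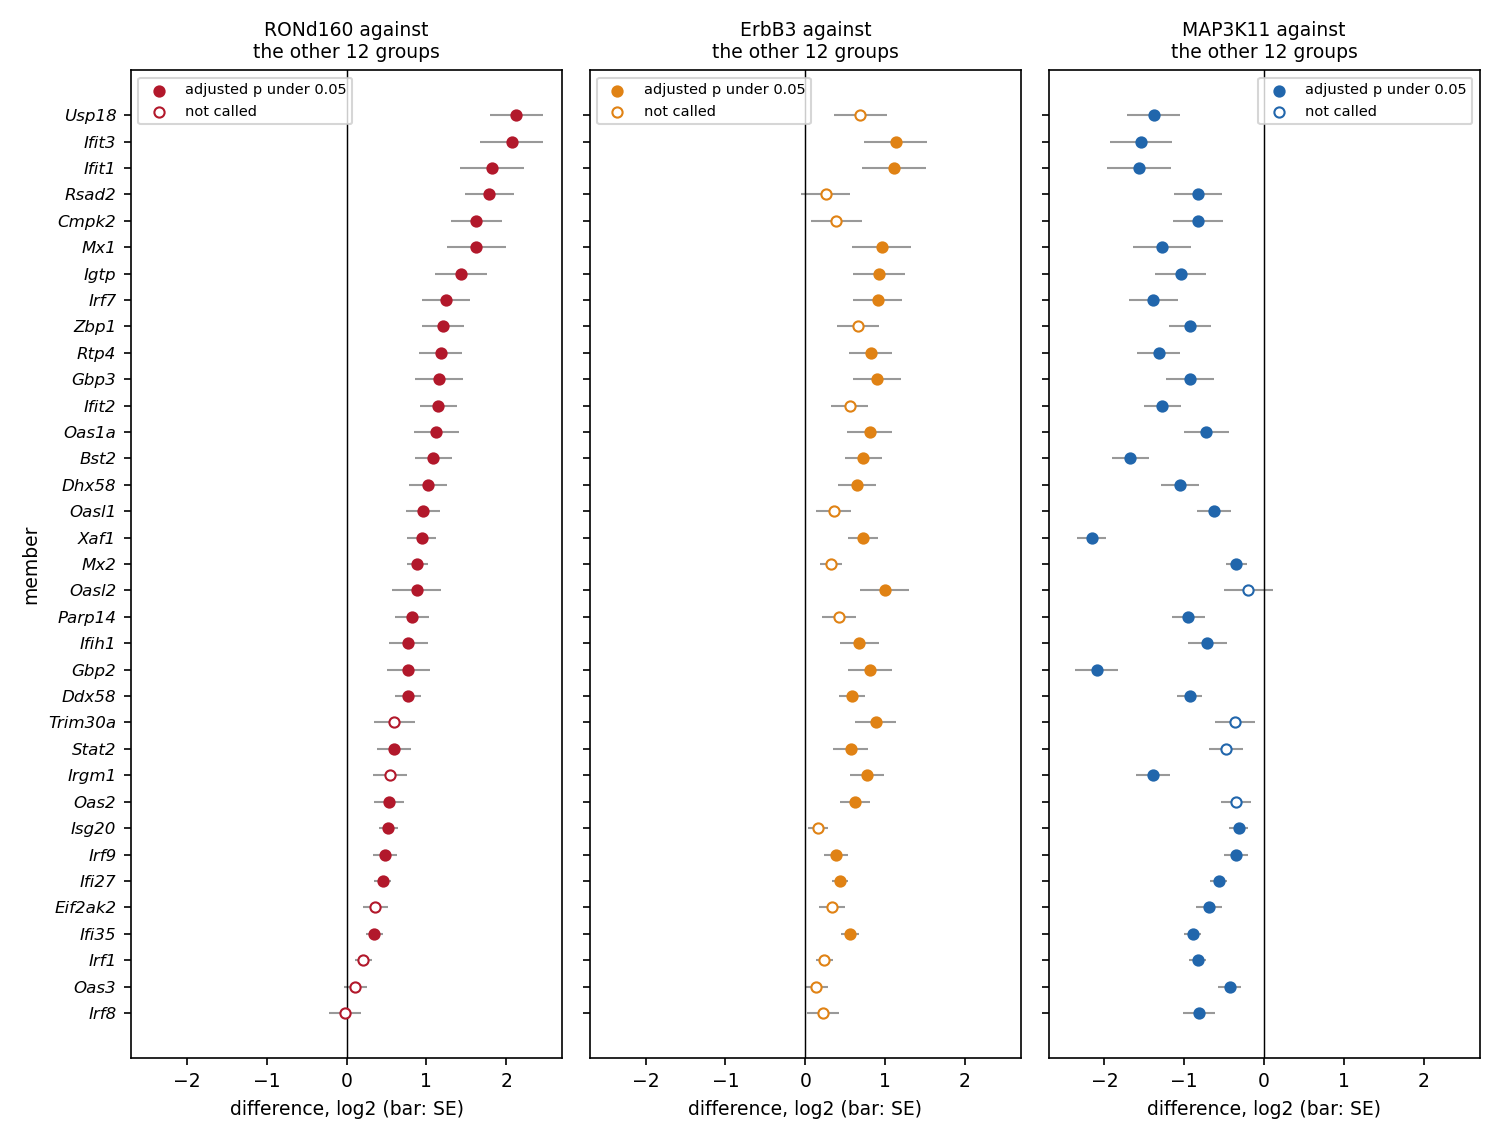
Fitted log2 difference of each member (point, with SE as a bar) in RONd160, ErbB3 and MAP3K11 tumours against the mean of the other 12 groups, in the order of the RONd160 differences, with calls at an adjusted p under 0.05 filled. Of 35 members, 29 were called higher in RONd160, 22 higher in ErbB3 and 31 lower in MAP3K11 tumours.

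RON+MSP tumours carry the receptor with its ligand in place of the splice form. Against them, RONd160 tumours had 22 members higher and none lower, where 6.14% of all genes were higher and 6.11% lower, and the median difference was 1.00. Usp18 arrays were 8.76, 9.69 and 10.43 (lowest, median and highest) in RONd160 tumours, against 6.30, 7.56 and 8.99 in RON+MSP tumours, a difference of 2.04 ± 0.45 (adjusted p = 0.00158). The highest RON+MSP array was above the lowest RONd160 array, and in no member were the 2 groups apart (2.7% of all genes were apart and higher).

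The other large differences from RON+MSP were Mx1 at 1.83, Ifit1 at 1.76, Ifit3 at 1.75, Igtp at 1.67, Rsad2 at 1.66, Cmpk2 at 1.60 and Oas1a at 1.43, with adjusted p-values of 0.00484 to 0.0227. None of the 35 members was called with pairs as a block, where 0.793% of all genes were called higher, the smallest adjusted p was 0.0583 and 25 members had an unadjusted p under 0.05. Without the pair of RONd160 T1 replicate 1 and T3 replicate 1 the count was 11. The RON+MSP arrays are spread widely, with a mean of the members from -1.07 to 0.84, and fitting only these 12 arrays called 2 members higher (1.85% of genes).

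In ErbB3 tumours 22 of 35 members were higher than in the other 12 groups and none was lower, against 15% and 13.6% of all genes. The differences reached at most 1.13, with a median of 0.65 over the members, and 2 members passed a 2-fold difference (1.17% of genes). With pairs as a block 5 members were called, against 5.8% of genes: Irgm1, Xaf1, Ddx58, Ifi35 and Ifi27.

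Ifit3 had arrays of 6.95, 9.33 and 9.79 in ErbB3 tumours, against 5.14, 7.50 and 11.21 in the other 70, a difference of 1.13 ± 0.39 (adjusted p = 0.025). Ifit1 had 6.58, 8.81 and 9.17 in ErbB3 tumours, against 3.82, 7.30 and 10.25 elsewhere, a difference of 1.11 ± 0.40 (adjusted p = 0.0301). In both genes 5 of 6 ErbB3 arrays were above the median of the other tumours and 1 was below it. The other 6 with the largest differences were Oasl2 at 0.99, Mx1 at 0.96, Igtp at 0.92, Irf7 at 0.91, Gbp3 at 0.90 and Trim30a at 0.88.

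By role, 5 of 6 GTPases, 3 of 5 OAS genes, 3 of 5 sensors, 2 of 3 IFIT genes and 6 of 10 other effectors were higher in ErbB3 tumours, and the roles were not compared by a test. Of the transcription factors, Irf7, Stat2 (0.57 ± 0.22, adjusted p = 0.042) and Irf9 (0.38 ± 0.15, adjusted p = 0.0466) were higher. Irf1 differed by 0.24 ± 0.11 (adjusted p = 0.0841) and Irf8 by 0.22 ± 0.20 (adjusted p = 0.448). Ifi35 had the lowest adjusted p, 6.98e-05, with a difference of 0.56 ± 0.11 and all 6 arrays above the mean of the other groups.

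The ErbB3 count rests on single arrays. It was 6 without T1 replicate 2, 10 without T3 replicate 2, 11 without T2 replicate 1 and 13 without T3 replicate 3, and 27 without T1 replicate 1. It was also 10 when the MAP3K11 group was left out of the reference, and it was 1 without the pair of T1 replicate 2 and T3 replicate 2 and 8 without the pair of T2 replicate 1 and T3 replicate 3.

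Set directly against each other, RONd160 tumours had 4 members higher than ErbB3 tumours and none lower, where 15.5% of all genes were higher and 17.3% lower. They were Rsad2 at 1.41 ± 0.41 (adjusted p = 0.00592), Usp18 at 1.32 ± 0.45 (adjusted p = 0.0186), Cmpk2 at 1.14 ± 0.42 (adjusted p = 0.0313) and Mx2 at 0.52 ± 0.18 (adjusted p = 0.0227). Rsad2 arrays were 7.91, 9.60 and 10.97 in RONd160 tumours, against 7.18, 8.32 and 8.77 in ErbB3 tumours. None of the 4 was called with pairs as a block, where 7.58% of genes were higher (smallest adjusted p over the members = 0.0561, 4 with an unadjusted p under 0.05), and leaving out single arrays gave counts of 1 to 5. The count was 1 without ErbB3 T1 replicate 1, and 2 without ErbB3 T3 replicate 1, RONd160 T1 replicate 1, RONd160 T1 replicate 2 or RONd160 T3 replicate 1, and 0 without the pair of RONd160 T1 replicate 1 and T3 replicate 1. For the other 31 members no difference was called, with differences from -0.26 for Trim30a to 0.86 for Ifit3, whose SE was 0.53.

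In MAP3K11 tumours 31 of 35 members were lower than in the other 12 groups and none was higher, against 29.3% and 25% of all genes. This group differed from the rest at 54.2% of all genes tested, so the count is to be read beside that share. With at least a 2-fold difference 13 members were lower, against 2.26% of genes, and with pairs as a block 23, against 22.1%. The median difference was -0.90 over the members and -0.01 over all genes tested. Stat2, Trim30a, Oas2 and Oasl2 were not called, and the block took away the calls of Cmpk2, Rsad2, Oas1a, Oasl1, Oas3, Irf9, Mx2 and Isg20.

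Xaf1, which antagonises the apoptosis inhibitor XIAP, and Gbp2, a guanylate-binding GTPase that interferon gamma induces strongly, had the largest differences, both downward. Xaf1 arrays were 7.12, 7.30 and 7.83 in MAP3K11 tumours, against 8.44, 9.54 and 10.92 in the other 70, a difference of -2.16 ± 0.18 (adjusted p = 4.75e-16). Gbp2 arrays were 6.31, 6.83 and 7.47 in MAP3K11 tumours, against 7.51, 8.95 and 11.14 elsewhere, a difference of -2.10 ± 0.27 (adjusted p = 1.04e-09). For these 2 members every MAP3K11 array was below all 70 others. The share of all genes for which this holds was not computed, so it has no background to be read against.

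Their further probe sets bear on both values. The second probe set of Gbp2 gave a raw difference of -2.02, close to -2.08 for the first, whose name marks probes that may also bind related genes. The second probe set of Xaf1 gave -0.55, against -2.14 for the first, so the size of the Xaf1 difference depends on the probes. Over all members 20 further probe sets were present for 15 genes, and 19 of them had the same sign as the first in each of the 3 groups.

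Bst2, or tetherin, which holds budding virus at the cell surface, had arrays of 7.15, 7.45 and 7.95 in MAP3K11 tumours, against 7.53, 9.18 and 10.71 elsewhere, and differed by -1.67 ± 0.23 (adjusted p = 5.21e-09). Of the 70 other arrays 66 were above every MAP3K11 array. Ifit1 differed by -1.57 ± 0.40 and Ifit3 by -1.54 ± 0.39, and Ifit2 by -1.28. Irgm1, an immunity-related GTPase, differed by -1.39 ± 0.21 (adjusted p = 7.63e-08), and Usp18 by -1.38 ± 0.33 (adjusted p = 0.000326). All 5 sensors were lower, from Eif2ak2 at -0.69 to Dhx58 at -1.05, and so were all 6 GTPases.

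Irf1, Irf7, Irf8 and Irf9 were lower in MAP3K11 tumours. Irf7 arrays were 5.94, 6.30 and 7.01 there, against 5.80, 7.75 and 10.11 elsewhere, a difference of -1.39 ± 0.30 (adjusted p = 9.34e-05). Irf1 arrays were 8.60, 8.86 and 9.08 in MAP3K11 tumours, against 9.04, 9.65 and 10.63 elsewhere, a difference of -0.83 ± 0.10 (adjusted p = 5.96e-10). For Irf1, 69 of the 70 other arrays were above every MAP3K11 array. Irf8 differed by -0.81 ± 0.20 (adjusted p = 0.000425) and Irf9 by -0.35 ± 0.15 (adjusted p = 0.0384). Stat2 differed by -0.47 ± 0.22 (adjusted p = 0.0563). Irf1 and Irf8, which were not called in RONd160 or ErbB3 tumours, were thus among the members called here.

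**Figure D4:**
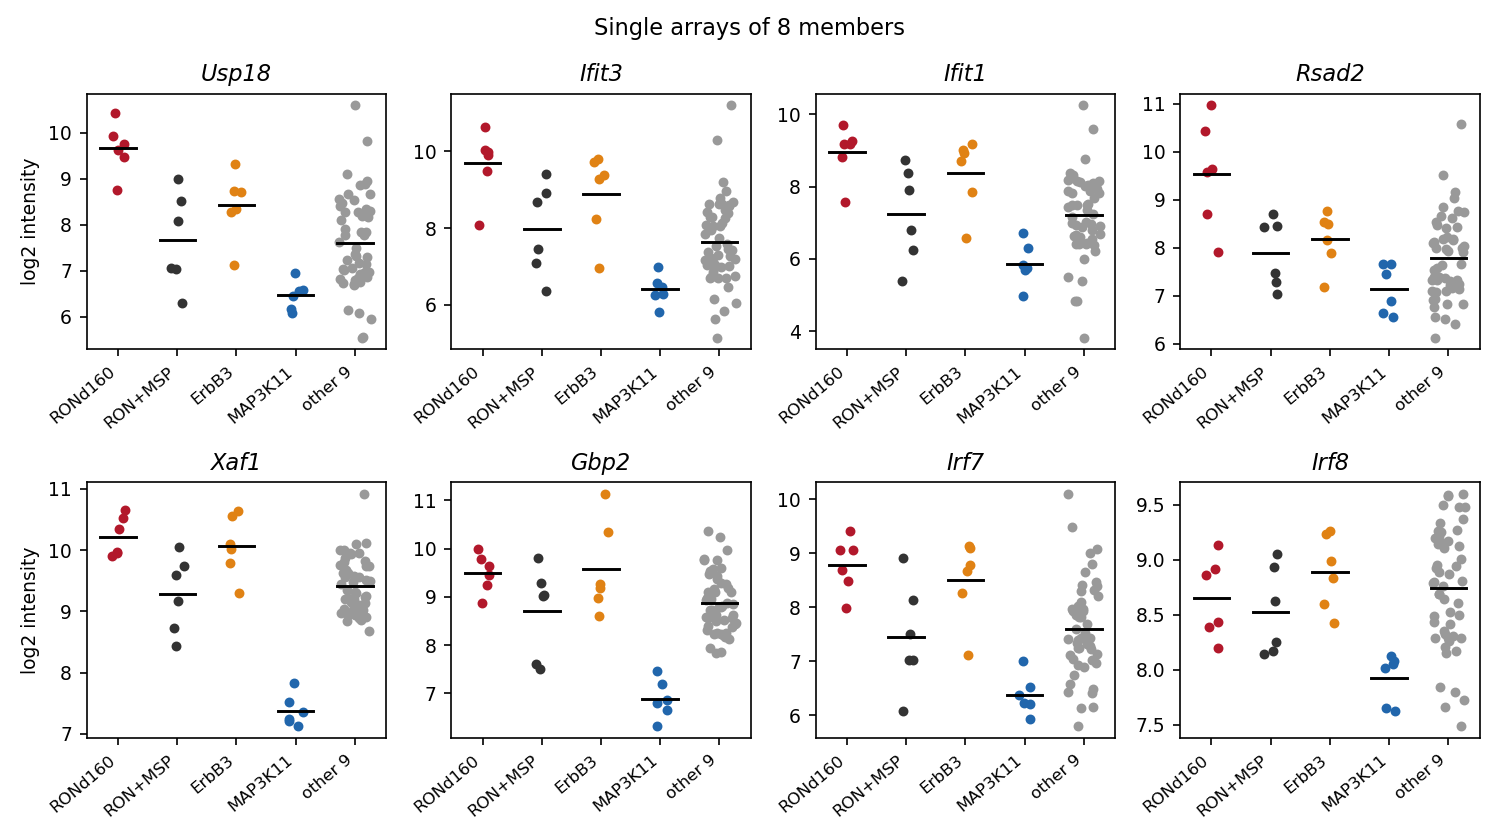
Single arrays (points, log2 intensity, with the group mean as a bar) of 8 members in RONd160, RON+MSP, ErbB3 and MAP3K11 tumours and in the other 9 groups pooled for display. All MAP3K11 arrays of Xaf1 and Gbp2 are below every other array, and for Irf8 the RONd160 arrays sit among those of the other groups.

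RONd160 and MAP3K11 stood at the ends of the range on these same values, so large differences between them were to be foreseen. The shares of all genes do not correct for this. All 35 members were higher in RONd160 than in MAP3K11 tumours, where 21.6% of all genes were, with a median difference of 1.70, and 30 with pairs as a block (14%). In 32 of 35 members the lowest RONd160 array was above the highest MAP3K11 array, as in 13.1% of all genes. Ifit3 differed by 3.33 ± 0.53, Usp18 by 3.24 ± 0.45, Ifit1 by 3.13 ± 0.54, Xaf1 by 2.86 ± 0.25, Mx1 by 2.68, Gbp2 by 2.65, Bst2 by 2.55 and Irf7 by 2.43, with adjusted p-values from 5.73e-15 to 1.21e-05.

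All 35 were also higher in ErbB3 than in MAP3K11 tumours, where 26.9% of genes were, with a median of 1.34, and 30 with pairs as a block (18.4%). The groups did not overlap in 22 members (14.5% of genes). Gbp2 led with 2.68 ± 0.37 (adjusted p = 8.81e-09), followed by Xaf1 at 2.66, Ifit1 and Ifit3 at 2.47 each, Bst2 at 2.22, Irf7 at 2.12, Mx1 at 2.06 and Irgm1 at 2.00. These 2 comparisons share the MAP3K11 arrays, the lowest group by the mean of the members.

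The ligands gave little to set beside these levels. Of 11 interferon genes listed, 7 had a probe set and 2 passed the filter, Ifna1 and Ifnb1. The levels of the 7 lay between 2.24 and 5.93 in all arrays, where the 40th percentile of an array was 4.68 to 4.86. Ifng had a median of 2.59 and a highest array of 4.03. Ifna1 was higher in RONd160 tumours by 0.28 ± 0.07 (adjusted p = 0.00243), a call not made with pairs as a block, and Ifnb1 differed by 0.11 ± 0.10 (adjusted p = 0.427). In ErbB3 tumours Ifna1 differed by 0.07 and Ifnb1 by -0.04, and in MAP3K11 tumours by 0.08 and -0.03, and none was called. In whole tumours, fewer cells of a type and less RNA per cell cannot be told apart.

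Of 10 receptor chains and transducers tested, 1 was lower in RONd160 tumours (11.9% of all genes were lower). In ErbB3 tumours 2 were higher and 1 lower (15% and 13.6% of all genes), and in MAP3K11 tumours 1 was higher and 1 lower (25% and 29.3%). These counts are near the background, or below it in MAP3K11 tumours. With pairs as a block it was 0 in RONd160 (4.6% of all genes were lower) and 1 each way in ErbB3 tumours (5.8% higher and 6.12% lower). Ifnar1, a chain of the interferon alpha and beta receptor, was lower in RONd160 tumours by -0.32 ± 0.10 (adjusted p = 0.0105, not called with pairs as a block) and higher in MAP3K11 tumours by 0.29 ± 0.09 (adjusted p = 0.00715). Ifngr1, the ligand-binding chain for interferon gamma, was lower in MAP3K11 tumours by -0.70 ± 0.15 (adjusted p = 8.79e-05) and higher in ErbB3 tumours by 0.50 ± 0.15 (adjusted p = 0.0103, not called with pairs as a block). In ErbB3 tumours Il10rb was higher by 0.40 and the kinase Jak2 lower by -0.53 ± 0.14 (adjusted p = 0.00276). Ifnar2, Ifngr2, Ifnlr1, Jak1, Tyk2 and Stat3 were called in none of the 3 comparisons with the other 12 groups.

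Other interferon targets made up a further list of 35 tested genes. In RONd160 tumours 12 were higher (11.4% of all genes were) and none lower, led by the chemokine Cxcl10 at 2.00 ± 0.42, Iigp1 at 1.59, Irgm2 at 1.09 and Gbp6 at 1.04. In ErbB3 tumours 20 were higher (15% of all genes), among them Cxcl10 at 1.37, Ifi44l at 1.31 and the immunoproteasome subunit Psmb9 at 1.26, and Ifitm1 was lower by -1.40. In MAP3K11 tumours 20 were lower (29.3% of all genes) and none higher, with Cxcl10 at -1.63, Dtx3l and Ifi44l at -1.40 each and Samd9l at -1.39. With pairs as a block 7 were higher in RONd160 and 10 in ErbB3 tumours, against 4.13% and 5.8% of all genes.

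Of 17 genes of nucleic acid sensing upstream, 3 were higher and 2 lower in RONd160 tumours, 5 higher in ErbB3 tumours, and 2 higher and 5 lower in MAP3K11 tumours. The shares of all genes were 11.4% and 11.9% in RONd160, 15% higher in ErbB3, and 25% and 29.3% in MAP3K11 tumours, so these counts are near the background in RONd160 and no more than it in MAP3K11 tumours. With pairs as a block 1 was higher and 1 lower in RONd160, 3 higher in ErbB3, and 2 higher and 2 lower in MAP3K11 tumours. The shares of all genes were then 4.13% and 4.6% in RONd160, 5.8% higher in ErbB3, and 17.3% and 22.1% in MAP3K11 tumours. The DNA sensor Cgas was higher in ErbB3 tumours by 0.46 and lower in MAP3K11 tumours by -0.73, and Tlr7 was higher by 0.72 and lower by -0.81 in the same order. In RONd160 tumours the RNA-editing enzyme Adar was higher by 0.26, Sting1 by 0.22 and Tbk1 by 0.16, while Ikbke was lower by -0.49. Of 8 negative regulators none was called in RONd160 tumours, and 3 were higher and 1 lower in ErbB3 tumours (1 and 0 with pairs as a block), where 15% and 13.6% of all genes were. In MAP3K11 tumours 1 was higher and 3 were lower (1 and 2 with the block), counts that are near the shares of all genes. Usp18, itself a brake, is counted among the members. In MAP3K11 tumours Socs3 was lower by -0.57 and Socs1 higher by 0.35, and in ErbB3 tumours Nlrc5 was higher by 0.83 and Tnfaip3 lower by -0.54. With pairs as a block Sting1, Tbk1, Nlrc5 and Tnfaip3 were not called.

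Of 15 markers of macrophages and monocytes tested, 9 were higher and none lower in ErbB3 tumours (15% of all genes were higher), led by Ms4a7 at 0.92, Mpeg1 at 0.89 and Adgre1 at 0.78, and 8 were lower and none higher in MAP3K11 tumours (29.3% of all genes were lower), led by Ccr2 at -1.61 and Itgam at -1.36. In RONd160 tumours none was higher and 2 were lower (11.9% of all genes), Mrc1 by -0.54 and Cd14 by -0.41, and neither was called with pairs as a block. The mean of the list ran from -1.005 to 0.32 over the RONd160 arrays, from 0.22 to 0.95 over ErbB3 arrays and from -0.69 to -0.18 over MAP3K11 arrays. The defining markers Csf1r, Cd68 and Adgre1 were above the filter in all 76 arrays. RONd160 T1 replicate 3 had the lowest macrophage mean of its group, -1.005, with a mean of the members of 0.92. T3 replicate 1 had the highest of both in that group, 0.32 and 1.46, and T3 replicate 2, with a macrophage mean of -0.73, had the lowest mean of the members, 0.20.

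**Figure D5:**
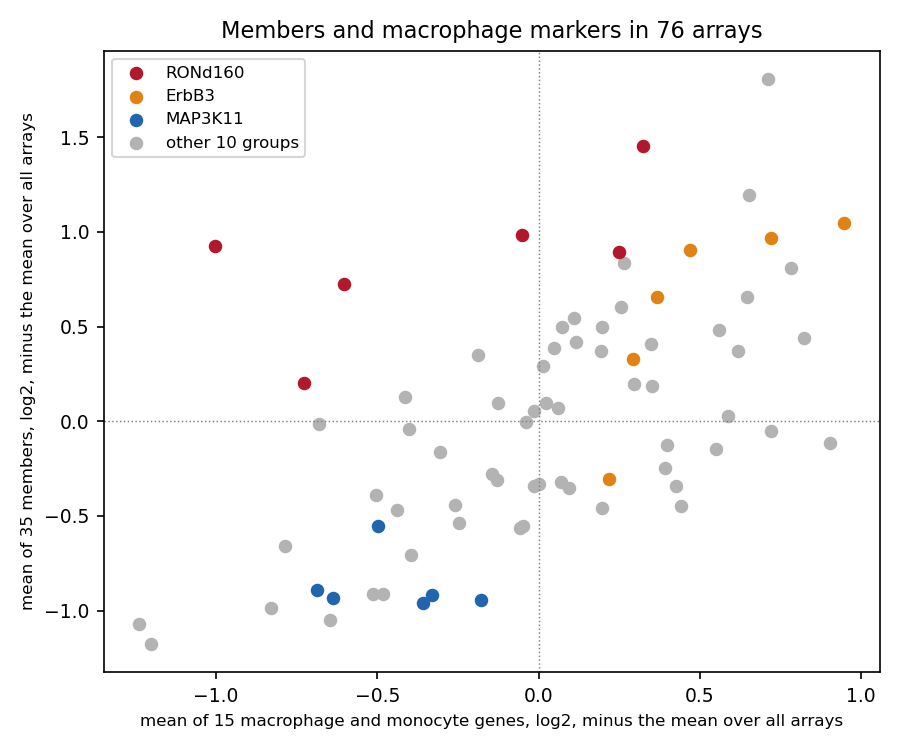
Mean of the 35 members against the mean of 15 macrophage and monocyte markers in the 76 arrays, both in log2 and centred on the mean of the 13 group means. The axis labels word the centre as the mean over all arrays. RONd160 arrays lie at 0.20 or above on the vertical axis with marker means of -1.005 to 0.32, and ErbB3 arrays have marker means of 0.22 to 0.95.

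A fit with the macrophage list's mean as a covariate was added after the data were seen. In it 33 members were higher in RONd160 tumours (11.6% of genes), 2 were higher in ErbB3 tumours (7.45%) and 20 were lower in MAP3K11 tumours (28.1%). The median difference over the members was then 1.11 in RONd160, 0.19 in ErbB3 and -0.51 in MAP3K11 tumours. Against ErbB3, RONd160 tumours then had 25 members higher (11.8% of genes) in place of 4. The marker mean comes from the same arrays, so this fit cannot separate macrophage content from a response that markers and members share. The part of macrophages in the results was not tested in any of the 3 groups.

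Of 11 T and NK cell markers tested, 1 was higher in RONd160 tumours (11.4% of all genes), 3 in ErbB3 tumours (15%), led by Klrd1 at 1.10 and Nkg7 at 0.86, and 4 in MAP3K11 tumours (25%), led by Gzmb at 1.20. Differences below 0 were found for 4 markers in RONd160, 3 in ErbB3 and 3 in MAP3K11 tumours. The lowest were -0.72, -0.14 and -0.45 in that order, and none was called lower. The counts with pairs as a block were 0 in RONd160, 0 in ErbB3 and 2 in MAP3K11 tumours (17.3% of all genes). The mean of that list ran from -0.32 to 0.26 in RONd160, from -0.36 to 1.09 in ErbB3 and from -0.11 to 0.70 in MAP3K11 arrays. Cd247 and Cd8b1 were above the filter in 0 of 76 arrays, and Cd3g was above it in 2. With this list's mean as a covariate 32 members were higher in RONd160 tumours (11.8%), 5 in ErbB3 tumours (9.88%) and 34 were lower in MAP3K11 tumours (30.4%).

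Of the other cell types, dendritic cell markers were higher in MAP3K11 tumours in 5 of 8, led by Itgax at 1.58 and Batf3 at 1.01, endothelial markers in 6 of 8 and fibroblast markers in 7 of 10, with Fap at 1.97, where 25% of all genes were higher. There 1 fibroblast marker was lower (29.3% of all genes), also with pairs as a block, and the lowest difference of that list was -1.47. Of the endothelial markers 4 were called higher with pairs as a block, against 17.3% of all genes. In ErbB3 tumours 5 of 10 fibroblast markers were higher and 1 lower, against 15% and 13.6% of all genes. In RONd160 tumours 1 was lower (11.9% of all genes), a call not made with the block. Skeletal muscle markers were lower in MAP3K11 tumours in 8 of 10 (29.3% of all genes), led by Myh1 at -4.35, and in 3 with the block (22.1%). In ErbB3 tumours all 10 muscle markers had differences above 0, with a median of 1.88, and 3 were called higher (15% of all genes), none with the block. In RONd160 tumours their median was -1.20 and none was called. Of the 10 epithelial markers 2 were higher in RONd160 tumours (11.4% of all genes), Krt8 by 0.57 and Krt18 by 1.30 (1 with the block, against 4.13%). In ErbB3 tumours 2 were higher (15%), Epcam by 0.29 and Cldn7 by 0.47 (none with the block), and 2 lower (13.6%), Krt18 by -3.63 and Krt8 by -1.02. In MAP3K11 tumours 4 were higher (25%), led by Krt19 at 2.47 (2 with the block, against 17.3%). The part of these cell types in the differences of the members was not tested. In a fit with the muscle list's mean as a covariate, 29 members were higher in RONd160 (11.6% of genes), 18 higher in ErbB3 (13.8%) and 27 lower in MAP3K11 tumours (27.3%).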

How the data were processed

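RNA of 76 tumours was measured, 1 array each of 45101 probe sets. Per the labels, a Qiagen kit gave total RNA, and biotinylated cRNA was made by the standard Affymetrix protocol. The deposited values are log2 intensities, from 1.77 to 14.18, which the authors had normalized, and the submitters' processing notes name affy. Their normalization method was not given in the sources used here. Groups follow the introduced gene in the labels.

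Of the probe sets, 34958 name 1 gene, 932 several and 9211 none, and among those that name 1 gene the set with the highest mean stood for it. Genes were tested that exceeded, in 4 arrays or more, the 40th percentile of the array. limma 3.58.1 (R 4.3.3, statmod 1.5.0) was fitted to all arrays with introduced gene and T label, leaving 61 residual degrees of freedom. Tests were two-sided, adjusted by Benjamini-Hochberg over 13868 genes, and called under 0.05. Alternatives changed the block, filter, normalization, probe set, variance prior, weights, threshold, covariates and arrays. Pairs were matched on the medians of 19 autosomes over 13374 genes, and the correlation within pairs was estimated at 0.628. The fit was tested on simulated data. Figures were drawn with matplotlib 3.10.9.

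The members and lists were chosen with earlier results of these data known. Named members are up to 8 called with the largest difference in a comparison, the factors Irf1, Irf7, Irf8, Irf9 and Stat2, ligands and receptors, and up to 4 called genes of each other list. Gbp2's second and Xaf1's second probe set, Ifi35, Ifit2, and the not-called members were added after their values were seen. No per-sample column was left unused.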

Additional observations from a re-analysis of the deposited data

Results flagged for a closer look

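Among 63 sets of 4 or 6 values examined for an array far from the rest of its group, 3 were found, and chance alone gives about 1 in 20. The mean of the members in MAP3K11 T3 replicate 1 was -0.554, where the other 5 MAP3K11 arrays lay between -0.961 and -0.889. In ErbB3 T1 replicate 1, Bst2 was at 8.75 with the next ErbB3 array at 9.61 and the highest at 10.1. In the same array Stat2 was at 5.15 with the next at 6.42 and the highest at 6.90.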

How the results depend on the processing

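Counts of called members moved by more than 1.5 times as follows. For ErbB3 against the other 12 groups (22), they were 5 with pairs as a block, 7 at an adjusted p under 0.01, 2 at 2-fold, 5 with the T and NK cell covariate, 2 with the macrophage covariate and 3 with the other arrays as 1 group. For RONd160 against RON+MSP (22), they were 0 with pairs as a block, 13 at 0.01 and 2 from only these 2 groups. For RONd160 against ErbB3 (4), they were 0 with pairs as a block, 1 at 0.01, 8 with the T and NK cell covariate, 25 with the macrophage covariate and 1 from only these 2 groups. At 2-fold they were 15 for RONd160 against the other 12 groups (29), 13 for MAP3K11 (31) and 23 for ErbB3 against MAP3K11 (35). The macrophage covariate gave 20 for MAP3K11 and 14 for ErbB3 against MAP3K11. The macrophage and muscle covariates were chosen after seeing the data. Leaving out single arrays gave 23 to 31 for RONd160, 6 to 27 for ErbB3, 27 to 31 for MAP3K11, 15 to 27 for RONd160 against RON+MSP, 1 to 5 for RONd160 against ErbB3, 31 to 35 for RONd160 against MAP3K11 and 32 to 35 for ErbB3 against MAP3K11. Leaving out pairs of the first group gave 22 to 27, 1 to 30, 21 to 28, 11 to 19, 0 to 5, 30 to 34 and 28 to 35 in that order: the lowest counts were without ErbB3 T1 replicate 2 and T3 replicate 2 (1) and, against RON+MSP and against ErbB3, without RONd160 T1 replicate 1 and T3 replicate 1 (11 and 0). Leaving out other groups gave 26 to 32 for RONd160, 10 to 27 for ErbB3 and 28 to 33 for MAP3K11. No member was called against the direction in any of these fits. Between groups, arrays with the same T label and replicate number were no more alike than others (median correlation -0.0144 against -0.00129). This does not tell whether the numbers pair arrays within a group. In TNK2 tumours the arrays of each matched pair had the same replicate number. With the replicate block the counts were 29, 20, 31, 21, 4, 33 and 34. Of single values, 14 turned sign, none of them called. Irf8 in RONd160 tumours, at -0.02, became 0.02 with the mean of all probe sets, 0.0156 and 0.22 with the T and NK cell and macrophage covariates, 0.0239, 0.0231 and 0.08 without T1 replicate 3, T2 replicate 1 and T3 replicate 2, -0.20 to 0.16 without pairs of arrays (above 0 without T1 replicate 3 and T3 replicate 2), and 0.00105, 0.00541, 0.0093 and 0.0264 without ErbB3, FGFR3, PIP5K1B and TNK2. In ErbB3 tumours Irf8 became -0.0281 with array weights and -0.22 with the macrophage covariate, and Irf1 ran from -0.0262 (without T1 replicate 2 and T3 replicate 2) to 0.387 without pairs of arrays. The causes were not tested. The number of arrays limits the precision.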

Other observations

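In the groups with the widest spread, FGFR3, FAK1 and RON+MSP, pairs of arrays lay apart. As the pairs were matched on expression, arrays of a pair can be alike through the matching. In FGFR3 tumours 1 pair had a mean of the members of 1.20 and 1.81 (T1 replicate 2 and T3 replicate 1), another 0.48 and 0.41, and the third -0.46 and -0.33, with macrophage marker means of 0.65 and 0.71, 0.56 and 0.35, and 0.20 and 0.00166 in that order. In FAK1 tumours 1 pair lay at 0.37 and -0.05 and the other at -1.18 and -0.98, with macrophage marker means of 0.62 and 0.72, and -1.20 and -0.83. In RON+MSP tumours the pairs lay at 0.84 and 0.39, -0.31 and -0.01, and -1.07 and -0.66, with macrophage marker means of 0.26 and 0.05, -0.13 and -0.68, and -1.24 and -0.79.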
